A study of Rattus norvegicus with 6 samples.

Results

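The lining of the oviduct makes the fluid in which sperm wait, and lactate, pyruvate and glucose are the fuels of that fluid. The 10 genes described here carry or interconvert these fuels, and all 10 were found among 14506 genes measured in rat endosalpinx, as this mucosa is called. They comprise 3 monocarboxylate carriers, their chaperone basigin, 4 glucose carriers and 2 subunits of lactate dehydrogenase. They were chosen by function, with earlier results of these data known. Among them, Slc16a3 was noted from the signals of these same arrays as higher in mated rats. The difference of Slc16a3 is therefore given as a description without a test, and the direct comparison of the groups supports no statement about the members as a set. For a gene with several probe sets, the brightest, by its mean of 6 arrays, was selected on that mean.

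RNA was measured on 1 array for each of 6 adult Sprague-Dawley rats with a labelled weight of 240 to 280 g, or 241 to 280 g for 1 of them. The 3 unmated rats were kept apart from males from pro-estrus, were killed at 0130 h of estrus and are labelled as having uterine edema. The 3 mated rats joined fertile males in pro-estrus, at 2200 h, had sperm or a plug in the vagina when checked 30 min later, stayed with the male, and were killed at the same clock time, 3 h after mating, with abundant semen in the uterus. Company of a male, handling and mating cannot be told apart in this design, and no agent or allele distinguishes the groups. The values are log2 signals, on which a difference of 1 is a doubling of signal. The level of 1 gene is not set against that of another, because array probes differ in brightness.

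Monocarboxylate carriers move lactate or pyruvate across the plasma membrane together with a proton, in the direction that the gradients set. Slc16a1 (MCT1) is widespread, Slc16a7 (MCT2) has a high affinity for pyruvate, and Slc16a3 (MCT4) is known from cells that make much lactate and export it. Bsg encodes basigin, the membrane glycoprotein that takes MCT1 and MCT4 to the cell surface, while embigin, from Emb, can do so for MCT2. The glucose carriers Slc2a1 (GLUT1), Slc2a3 (GLUT3), Slc2a4 (GLUT4, the insulin-responsive form of muscle and fat) and Slc2a8 (GLUT8, mostly intracellular) let glucose pass down its gradient. Ldha and Ldhb encode the subunits of the tetrameric enzyme that interconverts pyruvate and lactate.

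A promoter sequence was listed by RefSeq (rat assembly GRCr8) for 8 of the 10 genes, namely Slc16a1, Slc16a3, Slc16a7, Bsg, Slc2a1, Slc2a8, Ldha and Ldhb. The 250 bases upstream of the start were searched on both strands for the core of the hypoxia response element, ACGTG or GCGTG; a palindromic CACGTG counts once on each strand, and its overlapping matches are counted separately. The windows of Slc16a3, the member with the widest difference between groups, and of Ldha, with nearly none, are shown 5′ to 3′ on the strand of the gene. Capitals mark bases of a match. The first lies at chr10:106712078-106712327 (+ strand) and the second at chr1:106507842-106508091 (+ strand).
Slc16a3: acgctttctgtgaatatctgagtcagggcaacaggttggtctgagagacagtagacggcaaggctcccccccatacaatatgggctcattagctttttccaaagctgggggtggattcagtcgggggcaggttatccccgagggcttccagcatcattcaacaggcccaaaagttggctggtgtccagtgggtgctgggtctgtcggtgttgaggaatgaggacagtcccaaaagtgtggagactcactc
Ldha: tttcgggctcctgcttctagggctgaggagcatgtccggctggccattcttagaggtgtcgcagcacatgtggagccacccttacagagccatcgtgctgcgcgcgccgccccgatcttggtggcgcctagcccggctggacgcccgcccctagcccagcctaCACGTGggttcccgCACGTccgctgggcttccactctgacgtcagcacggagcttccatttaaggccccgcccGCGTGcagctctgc
The Ldha window held 4 matches, of which 2 form a CACGTG from -87 to -82 relative to the start. The Slc16a3 window held 0, as did that of Slc2a8. There were 4 in Slc2a1, 3 in each of Slc16a1 and Bsg, and 1 in each of Slc16a7 and Ldhb. Thus 6 of the 8 windows held the core, against 36.7% of 33469 windows of the same length, but GC content differs as well: the core was in 63.0% of the windows with at least 60% GC, a class that includes 4 of the 8. A match is a run of letters and not a shown binding site, and its absence says nothing of elements outside these 250 bases.

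Slc16a3 was the member with the largest difference. In unmated rats its log2 signal was 8.42, 8.07 and 9.0, and in mated rats 9.32, 8.89 and 9.08. Mated rats lay above unmated rats in 8 of the 9 possible pairs, but unmated replicate 3 lay above mated replicate 2, so the groups overlapped. The unmated mean was 8.50 ± 0.47 and the mated mean 9.10 ± 0.22 (SD, n = 3 each). They differed by 0.60, or 1.52-fold (95% confidence interval 0.09 to 1.11). The interval takes no account of the gene having been noted for this difference, and it is not read as a test. In a whole tissue, more RNA per cell and more cells of a type that expresses the gene cannot be told apart. Leaving out unmated replicate 2, the lowest array, took the difference to 0.39, and leaving out unmated replicate 3 took it to 0.85.

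The other carriers of lactate and pyruvate differed less between groups than among rats of a group. Slc16a1 was at 10.03, 9.42 and 9.60 in unmated and 10.05, 9.49 and 9.84 in mated rats. The first replicate was the highest in each group and the second the lowest, and the groups covered almost the same range. Slc16a7 was at 9.52, 9.31 and 9.30 in unmated and 9.90, 9.29 and 9.18 in mated rats. Only mated replicate 1 stood above all other arrays for this gene, and without it the difference moved from 0.08 to -0.14. The difference of Slc16a1 was 0.11 (95% confidence interval -0.31 to 0.53), and that of Slc16a7 had an interval from -0.33 to 0.49, and neither interval reached 1.5-fold in either direction. On each array, Slc16a3 less Slc16a1, set to a mean of 0 in unmated rats, was -0.42, -0.16 and 0.59 in unmated and 0.46, 0.59 and 0.43 in mated rats. This difference between the 2 carriers was level among mated rats and overlapped with unmated replicate 3.

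Bsg, the chaperone of MCT1 and MCT4, was the steadiest member. It lay at 12.02, 12.03 and 12.08 in unmated and at 12.08, 12.04 and 12.05 in mated rats. All 6 arrays thus fell within 0.06 log2 units, and the difference was 0.01 (-0.13 to 0.16). Emb, the partner of MCT2, was at 12.92, 12.82 and 12.86 in unmated and 12.96, 13.02 and 12.88 in mated rats, with a difference of 0.09 (-0.08 to 0.25).

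**Figure D1:**
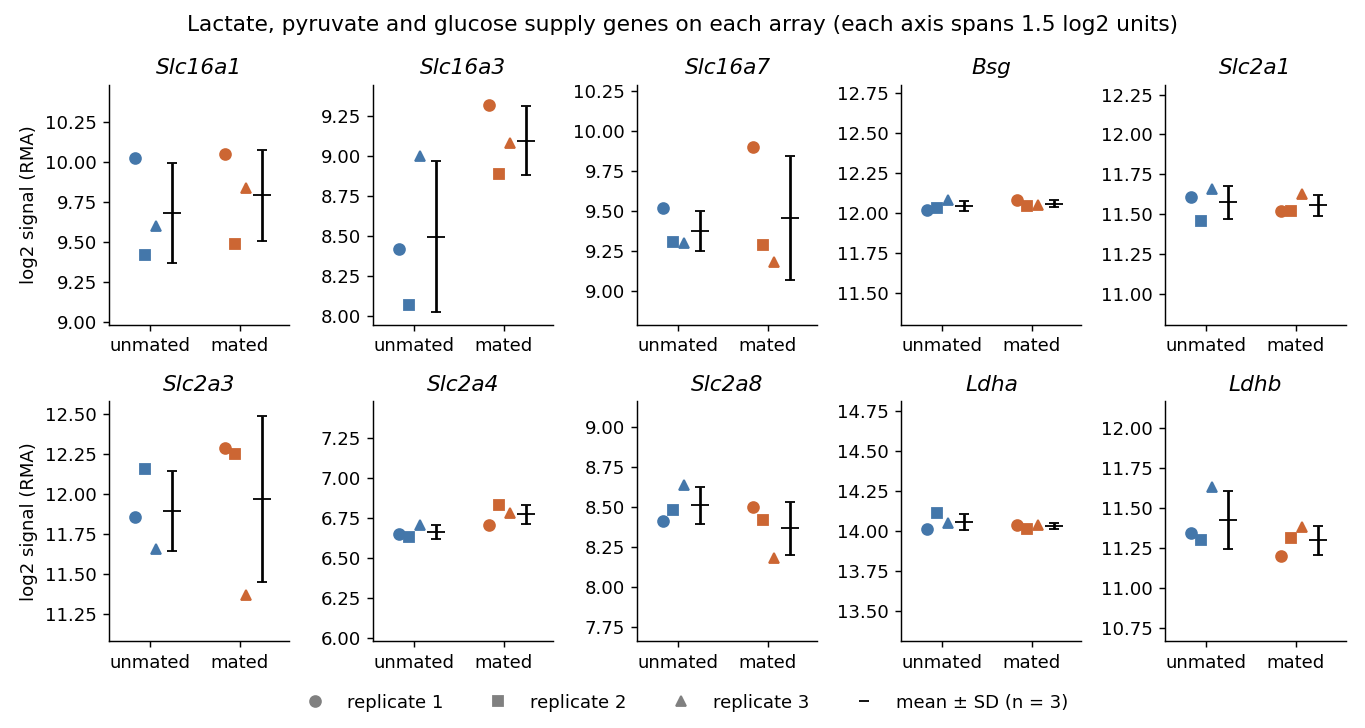
Log2 signal (RMA) of each of the 10 genes in 3 unmated (blue) and 3 mated (orange) rats; each symbol is 1 array, shaped by replicate number, and the bar gives the mean ± SD of the group. All axes span 1.5 log2 units but start at different levels. Slc16a3 shows the widest gap between group means, 8.50 against 9.10, with unmated replicate 3 at 9.0; Bsg and Ldha are nearly flat.

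Among the glucose carriers, Slc2a1, the form most tissues use for basal uptake, was at 11.61, 11.46 and 11.66 in unmated and 11.52, 11.52 and 11.63 in mated rats. Its difference was -0.02 (95% confidence interval -0.20 to 0.16), and the mated values lay inside the range of the unmated ones. Slc2a3, a high-affinity carrier, was at 11.86, 12.16 and 11.66 in unmated and 12.29, 12.25 and 11.37 in mated rats. Mated rats held both the highest signals and the lowest, the latter in replicate 3. Its difference of 0.08 had the widest interval of the 10 genes, -0.49 to 0.64, and without mated replicate 3 it was 0.38.

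Slc2a8 was at 8.41, 8.48 and 8.64 in unmated and 8.50, 8.42 and 8.18 in mated rats, with mated replicate 3 below all others. Its difference was -0.14 (-0.38 to 0.10). Slc2a4 was the only member whose mean, 6.72, lay within the receptor range, meaning at or below a log2 signal of 7.13, the 95th percentile of 1256 genes for olfactory-type receptors, which serve as a guide to background. Its values, 6.65, 6.63 and 6.71 in unmated and 6.71, 6.83 and 6.78 in mated rats, touched at 6.71, and differed by 0.11 (-0.05 to 0.27). At such a signal a level of GLUT4 transcript cannot be told from background.

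Ldha, the subunit that prevails in tissues making lactate, was at 14.01, 14.11 and 14.05 in unmated and 14.04, 14.01 and 14.04 in mated rats. Its difference was -0.03 (95% confidence interval -0.18 to 0.12). The gene had another probe set, the only such case among the 10, which read 12.85, 12.92 and 12.89 in unmated and 12.80, 12.88 and 12.85 in mated rats; its difference of -0.04 (-0.19 to 0.11) was also close to 0. Signals at this height are near the top of the scale of these arrays, whose highest value was 14.65, and bright probe sets can be compressed. Ldhb, the subunit of tissues that burn lactate, was at 11.34, 11.30 and 11.63 in unmated and 11.20, 11.31 and 11.38 in mated rats. The difference of -0.13 (-0.36 to 0.11) rested largely on unmated replicate 3, and was -0.02 without it. Ldha less Ldhb on each array, set to a mean of 0 in unmated rats, was 0.04, 0.18 and -0.21 in unmated and 0.21, 0.07 and 0.03 in mated rats, and the groups overlapped.

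Another dehydrogenase gene, Ldhc, known from the testis where it serves sperm, is added here after its values were seen. It lay at 10.68, 11.01 and 10.64 in unmated and at 10.57, 10.58 and 10.51 in mated rats. All mated signals were below all unmated ones, with a difference of -0.22 (95% confidence interval -0.46 to 0.02; adjusted p = 0.984 by limma over 14506 genes). Groups without overlap were found for 8.47% of all genes. The signal was bright in the unmated rats too, which had been kept from males. Whether its probes also bind transcripts of the related Ldha was not tested.

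Across the 10 genes, 6 were higher and 4 lower in the mated group. The median difference was 0.05, and over all genes 53.2% were higher and the median was 0.01. With every array centred at its median the split was 5 and 5, and a second quantile normalization gave 5 higher, 4 lower and 1 equal. For 0 of the 10 genes did the groups fail to overlap, against 8.47% of all genes. By limma with Benjamini-Hochberg adjustment, 0 of the 10 genes passed an adjusted p of 0.05, as did 0 of all 14506 (0%), where the smallest adjusted p was 0.984. An unadjusted p under 0.05 was reached by 663 genes (4.57%), and 19 of these were at least 1.5-fold different (0.131%). None of the 9 members other than Slc16a3 was among the 663; Slc16a3, noted for this very difference, is not counted against these shares. The intervals of the other 9 genes all included 0, and that of Slc2a3 alone among them reached beyond 1.5-fold.

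**Figure D2:**
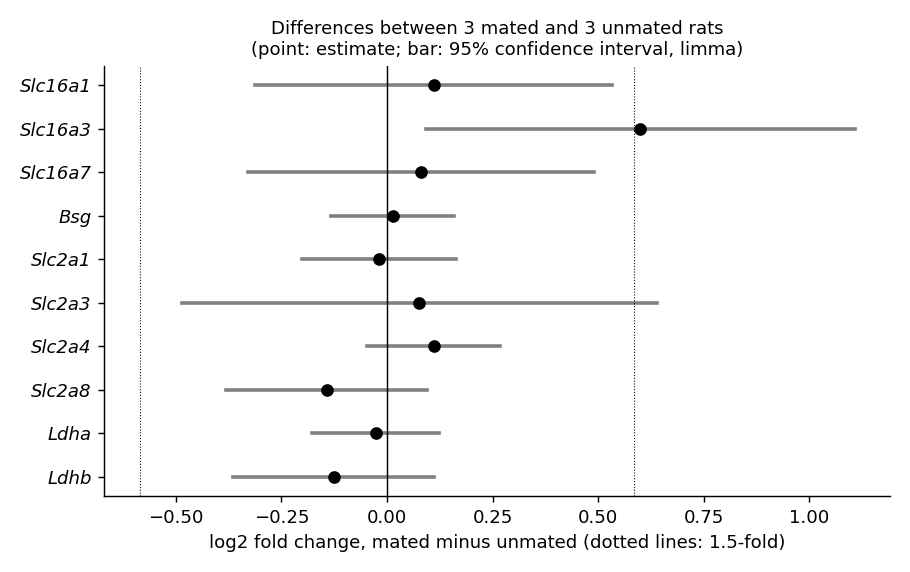
Log2 fold change, mated minus unmated, of the 10 genes (points) with 95% confidence intervals of the limma fit (bars); dotted lines mark 1.5-fold. Slc16a3, at 0.60, was noted for its difference and is shown as a description, and its interval takes no account of that choice. The intervals of the other 9 genes include 0.

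The members fell apart by how much they varied between rats given the same treatment, a measure that does not use the difference between groups. The SD within groups, pooled over both, was 0.41 for Slc2a3, 0.37 for Slc16a3, 0.30 for Slc16a1 and 0.29 for Slc16a7. These 4 carriers stood at the 99.1st, 98.4th, 96.7th and 96.2nd percentiles of all genes, whose median SD was 0.11. Bsg, at 0.03, and Ldha, at 0.04, stood at the 1.14th and 3.94th percentiles. Slc2a1, Slc2a8 and Ldhb lay between, at the 33.9th, 71.0th and 70.3rd, and Slc2a4 at the 10.4th, where a signal near background leaves little room for a transcript to vary. The brightness of Ldha, which may be compressed, leaves its low spread without a reading. All monocarboxylate carriers among the members thus had a wide spread within groups, on arrays on which the chaperone basigin did not. For Slc16a7 the SD was 0.39 in mated but 0.12 in unmated rats. With 1 array per rat, variation between animals and between arrays cannot be told apart. Mated replicate 1 was the highest of the 6 arrays for Slc16a3, Slc16a1, Slc16a7 and Slc2a3. For Slc16a1 this was narrow, at 10.05 against 10.03 on unmated replicate 1. It was narrow also for Slc2a3, at 12.29 against 12.25 on mated replicate 2. Over all genes, too, mated replicate 1 stood farthest out on the first principal component. Relative to the unmated mean, mated replicate 1 was at 0.82 for Slc16a3, 0.37 for Slc16a1, 0.52 for Slc16a7 and 0.40 for Slc2a3. For Slc2a3, mated replicate 3 lay farther from that mean, at -0.52. Unmated replicate 3 was at 0.50 for Slc16a3 but at -0.08 for both Slc16a1 and Slc16a7.

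**Figure D3:**
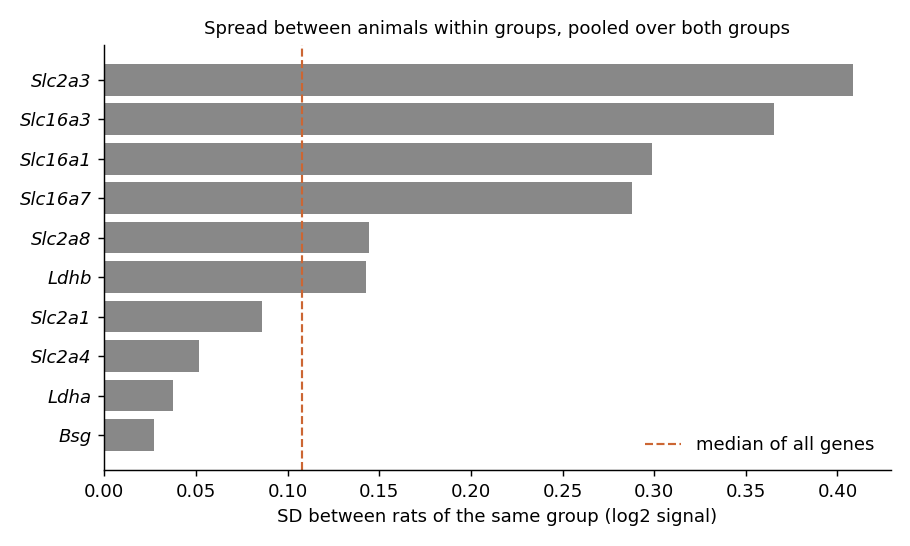
Standard deviation of the log2 signal between rats of the same group, pooled over both groups of 3, for each gene (bars, from 0), with the median of all 14506 genes as a dashed line at 0.11. Slc2a3 and the monocarboxylate carriers lie well above that line, Bsg and Ldha below it.

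The genes most like Slc16a3 over the 6 arrays were sought among 10299 genes above the receptor range, by the root mean square difference between log2 values centred on each gene's own mean. The nearest was Egln3, an oxygen-sensing prolyl hydroxylase that hypoxia induces, at 0.13. Its values were 8.25, 7.92 and 8.60 in unmated and 8.86, 8.44 and 8.83 in mated rats. As with Slc16a3, unmated replicate 2 was the lowest array, mated replicate 1 the highest, and unmated replicate 3 lay above mated replicate 2. Next came Sectm1b at 0.14, Ckmt1, a mitochondrial creatine kinase, at 0.17, Ptprn2, a receptor-type phosphatase homologue of secretory granules, at 0.17, and Hpse, the heparan sulfate-degrading heparanase, at 0.18. A gene with the same signal on every array would be at 0.42, and the nearest member, Slc2a4, was at 0.38. The measure spans both groups, so it contains the difference for which Slc16a3 was noted. A like order of arrays and a higher mated mean are thus favoured by the choice. Likeness over 6 arrays, chosen as the best of many genes, is a description and has no test.

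**Figure D4:**
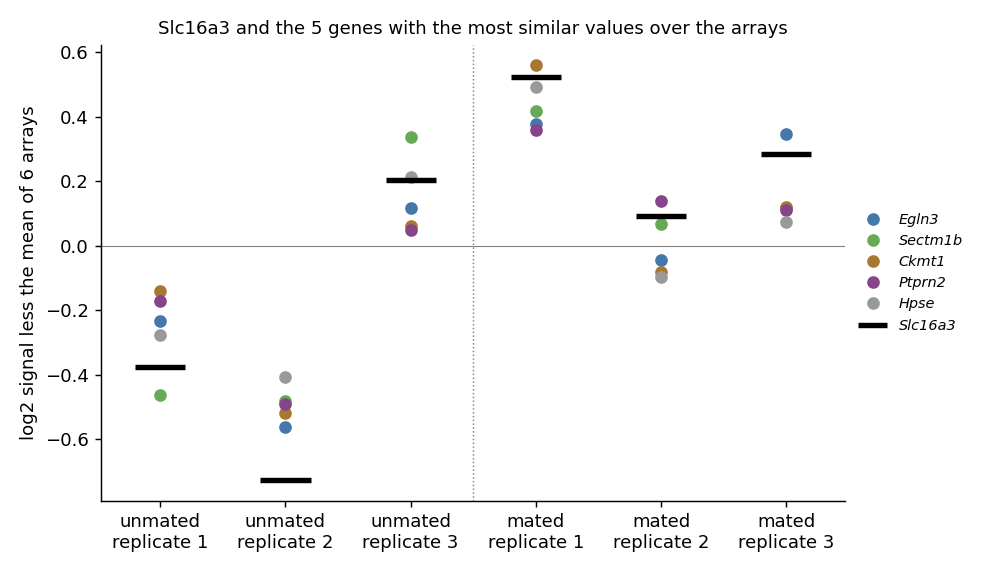
Log2 signal less the gene's mean over 6 arrays, for Slc16a3 (black bars) and the 5 genes nearest to it (points), on each array. All 6 genes are lowest in unmated replicate 2 and highest in mated replicate 1, a likeness for which the 5 genes were chosen. Egln3 is the nearest, at a root mean square difference of 0.13.

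Other genes of the same metabolism were taken from 7 lists with 122 entries, of which 108 were measured, 1 of them under the newer symbol G6pc1. None passed the adjusted threshold (0 of 108; adjusted p = 0.984 by limma for the genes named here from the lists, except 1 for Hif1a). At an unadjusted p under 0.05, 7 of the 108 were higher and 0 lower in mated rats, against 3.02% and 1.55% of all genes. The direction of all genes at this level depended on scaling: 438 were higher and 225 lower as deposited, 393 and 299 once quantiles were equalised again, and 336 and 294 with arrays centred at their medians.

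Glycolysis, the path from glucose to pyruvate, had 20 of 23 measured genes higher in mated rats as deposited and after median centring, and 21 after a second quantile normalization. Of all genes, 53.2% were higher as deposited, 46.6% after median centring and 51.2% after a second quantile normalization. The differences were small, with a median of 0.07 against 0.01 for all genes. At an unadjusted p under 0.05 by limma stood 1 of the 23, near the 4.57% of all genes. This gene was Hk2, the inducible hexokinase that commits glucose to the cell. It was at 10.27, 9.52 and 10.02 in unmated and 10.54, 10.20 and 10.40 in mated rats. Unmated replicate 2 was again the lowest array and mated replicate 1 the highest, and the groups overlapped, since unmated replicate 1 lay above mated replicate 2. The difference was 0.44 (95% confidence interval 0.02 to 0.86). The neuronal enolase Eno2, at 0.16 (-0.07 to 0.40), and the muscle phosphoglycerate mutase Pgam2, at 0.12 (-0.06 to 0.30), were next by p. The mean of the glycolysis list overlapped between groups, at 10.19, 10.09 and 10.22 in unmated and 10.27, 10.19 and 10.29 in mated rats. Without unmated replicate 2 the count of higher glycolysis genes was 17. Hk2 kept an unadjusted p under 0.05 in 2 of the 6 cases with 1 array left out, without unmated replicate 1 or without mated replicate 2, and its difference ran from 0.24 (without unmated replicate 2) to 0.61.

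Genes that hypoxia induces or that sense it, a list that holds Egln3, had 13 of 17 higher, 3 lower and 1 equal in mated rats as deposited, with a median of 0.10. At an unadjusted p under 0.05, 5 were higher and 0 lower, against 3.02% and 1.55% of all genes. P4ha1, a collagen prolyl hydroxylase subunit, was at 11.70, 11.73 and 11.88 in unmated and 12.06, 12.07 and 12.38 in mated rats, and the groups did not overlap. Its difference was 0.40 (0.16 to 0.64), and that of its relative P4ha2 was 0.32 (0.07 to 0.56), again without overlap. Egln3 differed by 0.45 (0.04 to 0.87) with overlap. The other 2, named after their values were seen, were Adm, which encodes the vasodilator adrenomedullin, at 0.53 (0.04 to 1.02), and Ndrg1 at 0.28 (0.01 to 0.55). Not all genes of this list lay higher. Of these, also named after their values were seen, Car9, carbonic anhydrase 9, differed by -0.24 (-0.55 to 0.06), and Hif1a, which encodes the oxygen-regulated factor itself, by 0.00 (-0.21 to 0.21). The count of 5 was 2 without unmated replicate 2 or without mated replicate 3, and 3 without mated replicate 1 or without unmated replicate 1, the last with 1 gene lower. P4ha1 kept an unadjusted p under 0.05 whichever of the 6 arrays was left out, P4ha2 in 4 of the 6 cases, Adm and Ndrg1 in 3 and Egln3 in 2. Without unmated replicate 2 the list also split as 10 higher and 7 lower. The mean of the hypoxia list overlapped between groups, at 9.79, 9.65 and 9.89 in unmated and 10.01, 9.82 and 9.97 in mated rats.

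Use of pyruvate in mitochondria had 10 of 15 genes higher, or 8 after median centring, with a median of 0.02. Mpc1, a subunit of the carrier that takes pyruvate into mitochondria, was at 8.09, 8.15 and 8.02 in unmated and 8.37, 8.20 and 8.28 in mated rats. These groups did not overlap, and the difference was 0.20 (0.02 to 0.37). Its unadjusted p was under 0.05 in 2 of the 6 cases with 1 array left out, without unmated replicate 2 or without mated replicate 2. The pyruvate dehydrogenase kinases Pdk3 and Pdk4, which switch off entry of pyruvate into the citric acid cycle, differed by -0.15 (-0.37 to 0.08) and 0.28 (-0.20 to 0.77). Genes of glycogen and glucose release were split, 9 higher and 10 lower, with a median of -0.02. In this list Gys1, glycogen synthase, differed by 0.22 (-0.03 to 0.47) without overlap, Phka1, a subunit of phosphorylase kinase, by -0.10 (-0.26 to 0.05) without overlap, and Pygb, a glycogen phosphorylase, by -0.10 (-0.29 to 0.09).

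The remaining carriers were split as well. Of 10 other monocarboxylate carriers and partners 5 were higher and 5 lower, or 4 higher under either other scaling, with a median of 0.01. Slc16a13, a relative of the lactate carriers, was at 9.45, 9.38 and 9.40 in unmated and 9.26, 9.27 and 9.28 in mated rats. These groups were apart, but the difference of -0.14 was small (-0.29 to 0.01). Slc16a10, an aromatic amino acid carrier of the same family, differed by 0.20 (-0.08 to 0.48). Of 10 other glucose carriers 6 were higher and 4 lower, with a median of 0.07 and differences from -0.10 for Slc5a4 to 0.11 for the fructose carrier Slc2a5, both within the receptor range; Slc2a10 differed by 0.10 (-0.08 to 0.27). In glucose sensing and insulin signalling 8 of 14 were higher, or 6 after median centring, at a median of 0.01. The kinase Akt1 differed by -0.14 (-0.31 to 0.02) without overlap, and the receptors Igf1r and Insr by 0.20 (-0.03 to 0.43) and 0.13 (-0.10 to 0.36).

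**Figure D5:**
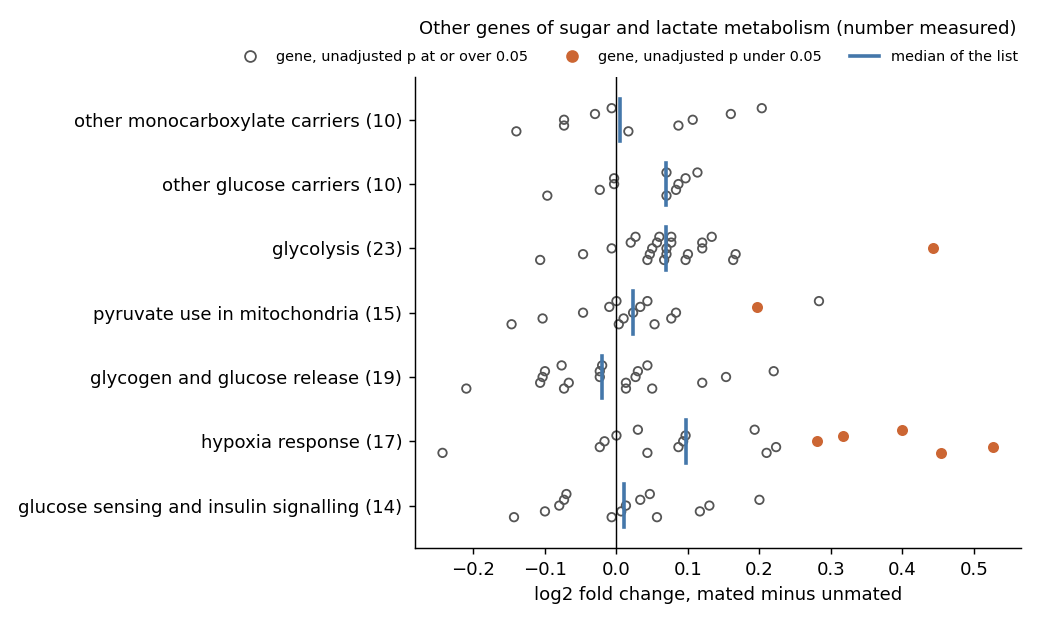
Log2 fold change, mated minus unmated, of each measured gene of 7 lists (points; filled where the unadjusted p was under 0.05) with the median of each list (blue line). The 5 filled points of the hypoxia list lie to the right of 0, and so do most glycolysis genes, of which Hk2 at 0.44 stands apart.

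The tissue was checked against markers of the cells it may hold. All 9 measured markers of secretory epithelium and 9 of 10 of ciliated cells lay above the receptor range. Fibroblast markers did so for 6 of 8, macrophage markers for 9 of 10, adipocyte markers for 6 of 8 and smooth muscle markers for 7 of 8. Of all genes, 71.1% lay above this range. Among the 8 adipocyte markers 6 were higher and 2 lower in mated rats, where 53.2% of all genes were higher. At an unadjusted p under 0.05 by limma, 1 of them was higher and 0 lower, against 3.02% and 1.55% of all genes. Of the neutrophil markers 9 of 10 lay within the receptor range, among them the defining Mpo and Elane. The exception was lactoferrin, Ltf, which epithelia also make. Ltf and Elane, named after their values were seen, were higher on every mated than on every unmated array. The differences were 0.39 (-0.07 to 0.84) and 0.22 (0.07 to 0.38). Groups without overlap were thus found for 2 of 10 neutrophil markers, against 8.47% of all genes. The list had 7 markers higher and 3 lower, or 5 and 5 after a second quantile normalization. The part of Ltf and Elane in the results above was not tested. Of the erythroid markers 4 of 6 lay within the receptor range. Sperm and testis markers lay there for 9 of 14, and the mean of the list was 7.07 to 7.09 on unmated and 7.05 to 7.12 on mated arrays. For 3 of these 14, Ldhc among them, the groups did not overlap, against 8.47% of all genes. At an unadjusted p under 0.05 by limma, 1 was lower and 0 higher, against 1.55% and 3.02% of all genes. Over the list, 7 were higher and 7 lower.

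The mean of each marker list overlapped between the groups, but opposite changes can cancel in such a mean. Of 8 endothelial markers, 2 were higher and 2 lower at an unadjusted p under 0.05 by limma. The shares of all genes were 3.02% and 1.55%. For 3 of the 8 the groups did not overlap, against 8.47% of all genes. The differences of the 8 ran from -0.29 to 0.33, and 3 of the 8 lay within the receptor range. Without the dimmest 25% of genes, 6 endothelial markers were left, of which 2 were higher and 0 lower at this unadjusted p. The lower ones thus rested on dim signals. The mean log2 signal of the secretory list ran from 11.48 to 11.64 on unmated and from 11.56 to 11.71 on mated arrays, and that of the ciliated list from 10.24 to 10.40 and from 10.14 to 10.44. For macrophages the ranges were 8.06 to 8.26 and 8.08 to 8.14, and for neutrophils 6.57 to 6.75 and 6.67 to 6.79. The fibroblast mean was 7.75, 7.70 and 7.39 in unmated and 7.36, 7.51 and 7.50 in mated rats, with 7 of 8 markers lower in mated rats, or 5 after a second quantile normalization. Ciliated markers were lower for 9 of 10, also under both other scalings, and smooth muscle markers for 6 of 8. As deposited, 6593 of all 14506 genes were lower. The 1 ciliated marker that was higher had an unadjusted p under 0.05 by limma, against 3.02% of all genes, and 0 were lower at that level. Without the dimmest 25% of genes it dropped out, and the 9 left were all lower. The part of these shifts in the results was not tested. The fibroblast mean was low on unmated replicate 3, the unmated array on which Slc16a3 was high. It was also low on mated replicate 1, on which Slc16a3 was highest. Its part in the result for Slc16a3 was not tested. The secretory mean was also highest of its group on unmated replicate 3, at 11.64, but was 11.56 on mated replicate 1. Over all genes, mated replicate 1 stood farthest out on the first principal component, at 12.9 against -11.0 and -10.9 for the other mated arrays, and without this array the difference of Slc16a3 was 0.49.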

How the data were processed

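RNA from the endosalpinx of 6 rats (0.3 µg each) was amplified, labelled and put on 1 Affymetrix array per animal, per the labels' protocols. The deposited values are log2 signals per probe set, made by the authors with RMA in Affymetrix Expression Console, per the submitters' processing notes; versions, scan batches and the genome build are not given in the sources used here. RMA equalises the arrays' distributions, so a shift shared by most transcripts would not be visible. Array medians ran from 7.89 to 7.94. Depth does not apply to arrays, and their number limits the precision.

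Of 29214 probe sets, 15310 had exactly 1 gene symbol in the array annotation, 323 had several and 13581 none listed; 15279 of the former had an identifier in the RefSeq gene table. Keeping the brightest probe set per gene left 14506 genes. The mated-against-unmated fit used limma 3.58.1 in R 4.3.3 (lmFit and eBayes, all 6 arrays, two-sided), with Benjamini-Hochberg adjustment over all genes and a threshold of 0.05. Intervals are 95% intervals of the moderated fit, not adjusted for the number of genes. The fit was run on simulated data with known changes, where the requirement was set on the median estimate of the change. How many such changes would pass the adjusted threshold is not given here. The arrays are separate animals per the labels.

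The members and lists were chosen with earlier results of these data known. Genes named are all members, the 3 of smallest unadjusted p in each list, and the 5 most like Slc16a3; others are said to be named after their values were seen. Same-numbered arrays did not deviate together (correlations of deviations from group means 0.00, -0.08 and 0.07 over genes), so replicate numbers were not used as pairs. Alternatives covered the replicate block, variance models, array weights, scaling, filters on dim genes, probe set choice and leaving out each array.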

Additional observations from a re-analysis of the deposited data

How the results depend on the processing

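Under 16 alternatives, 0 genes passed the adjusted threshold in each, as with the values as deposited; the counts at an unadjusted p under 0.05 are given next. That count, 663 as deposited and 672 with a replicate block, was 1207 with array weights, 1372 over every probe set and 262 without the dimmest 50% of the genes; leaving out single arrays gave 432 (without unmated replicate 2) to 1403 (without mated replicate 1). Genes without overlap numbered 1229, and 518 without the dimmest 50%, 2569 over every probe set, and 2116 to 3886 with 1 array left out, where 2 arrays face 3. The filter, the use of every probe set and the left-out arrays change the number of genes or arrays tested; for array weights the cause was not tested.

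The difference of Slc16a3, a description, ran from 0.39 to 0.85 over 16 alternatives and was 0.58, under 1.5-fold, with arrays centred at their medians. The replicate block and the variance models leave a difference as it is by construction. The sign turned under 1 to 4 alternatives for each of Slc16a1, Slc16a7, Bsg, Slc2a1 and Slc2a3, and Ldha reached 0.00 under 1. The filters on dim genes gave no value for Slc2a4 at 25% and 50% or for Slc2a8 at 50%. Of 112 list medians 5 moved by more than the SD between replicates. With the replicate block 0 genes passed the adjusted threshold; at an unadjusted p under 0.05 it gave 6 hypoxia genes in place of 5, 0 pyruvate genes in place of 1 and 1 glycogen gene in place of 0. With 3 animals per group, the interval of the median gene reached 0.20 log2 units to either side.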
